A study of Mus musculus with 8 samples.

Results

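The genes examined were those of the enzymes that place and remove the methyl mark of DNA: Tet1, Tet2, Tet3, Dnmt1, Dnmt3a, Dnmt3b, Dnmt3l and Uhrf1. Taken from the data were all N6-methyladenosine (m6A) peaks whose midpoint lay in the same-strand span of 1 of these 8 genes in the GENCODE mouse annotation. This gave 21 of 17068 peaks, in 6 of the 8 genes. The data came from E14 mouse embryonic stem cells (mESC), a widely used line for which the labels name no genetic change or treatment, grown in serum with LIF. Chromatin-associated RNA, a fraction rich in nascent transcripts that are still being spliced, was fragmented and precipitated with an m6A antibody from Synaptic Systems (SySy) or from Abcam (ChrMeRIP-seq). The 4 groups were the precipitated RNA and the input of each antibody, with 2 replicates each and 8 libraries in all, and the labels do not say whether the replicates were separate cultures. Peaks were deposited as 3 lists called on pooled duplicates. Confidence group 1 (Cfg1) was called with both antibodies, group 2 (Cfg2) with SySy where Abcam signal lay under the threshold, and group 3 (Cfg3) with Abcam only.

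The lists hold intervals and strands but no peak height, no read count and no value per library. Depth was therefore unknown, there was no error between replicates, and the 95% Wilson intervals given with shares cover counting error only. They treat peaks as independent, although several Tet2 peaks are parts of a single called region split between its summits. The intervals are therefore too narrow even for counting error. A gene without a peak cannot be told apart from a gene with too little chromatin-associated RNA for a call, and the cell type could not be checked against marker levels. The antibodies had separate libraries, for which the paper's methods name different kits (TruSeq Stranded for Abcam, NEBNext Ultra II Directional for SySy). Antibody, library and kit therefore cannot be told apart.

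DNA methylation in mammals sits mostly on cytosines followed by guanine. DNMT3A and DNMT3B place it on unmethylated DNA, with DNMT3L as a catalytically inactive partner, and DNMT1 copies it to the new strand after replication, at hemimethylated sites that UHRF1 binds. The TET enzymes oxidise 5-methylcytosine to 5-hydroxymethylcytosine and further products, and mouse embryonic stem cells are known for abundant TET1 and TET2. The catalytic domain of the TET proteins lies at their C-terminal end and is encoded in part by the last exon. m6A itself is placed co-transcriptionally by the METTL3 complex, mostly in the sequence DRACH (D is A, G or T; R is A or G; H is A, C or T), with GGACT as its best known form, and mRNAs often carry it in long internal exons and around the stop codon.

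Most of the peaks lay in the Tet genes. Tet2 held 9 peaks, Tet1 held 6 and Tet3 held 3, so that 18 of the 21 peaks fell in these 3 genes. Dnmt1, Dnmt3a and Uhrf1 held 1 peak each, and Dnmt3b and Dnmt3l held 0. No peak of the opposite strand had its midpoint in any of the 8 spans, and no peak of either strand lay within 3000 nt outside them. The Tet mRNAs made up 54.2% of the spliced sequence of the 8 genes, and the Tet genes held 85.7% of the peaks. The 4 Dnmt mRNAs made up 39.2% of the sequence, and their genes held 9.52% of the peaks. The shares of sequence rest on GENCODE transcripts, and that of Tet3 has 5944 nt, beside 11613 nt in RefSeq. The shares of peaks include intronic peaks, which lie outside spliced sequence, and count parts of a split region separately.

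Over all 21951 protein-coding genes, 25.1% held at least 1 peak, against 6 of the 8 genes here. Among the 14669 coding genes with an mRNA at least as long as that of Dnmt3l, the shortest of the 8 at 1822 nt, the share was 32.9%. Cfg1 peaks, supported by both antibodies, occurred in 2 of the 8 genes (Tet2 and Tet3), beside 12.1% of coding genes. Cfg2 peaks occurred in 3 (Tet1, Tet2 and Uhrf1), beside 13.7% of coding genes. Cfg3 peaks occurred in 5 (the 3 Tet genes, Dnmt1 and Dnmt3a), beside 13.3% of coding genes. Within the 5512 coding genes that held a peak of some kind, these shares were 48.4%, 54.6% and 52.8%. The 8 genes were chosen with earlier results known and share a process, so these counts describe them and are not a test of the family.

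**Figure D1:**
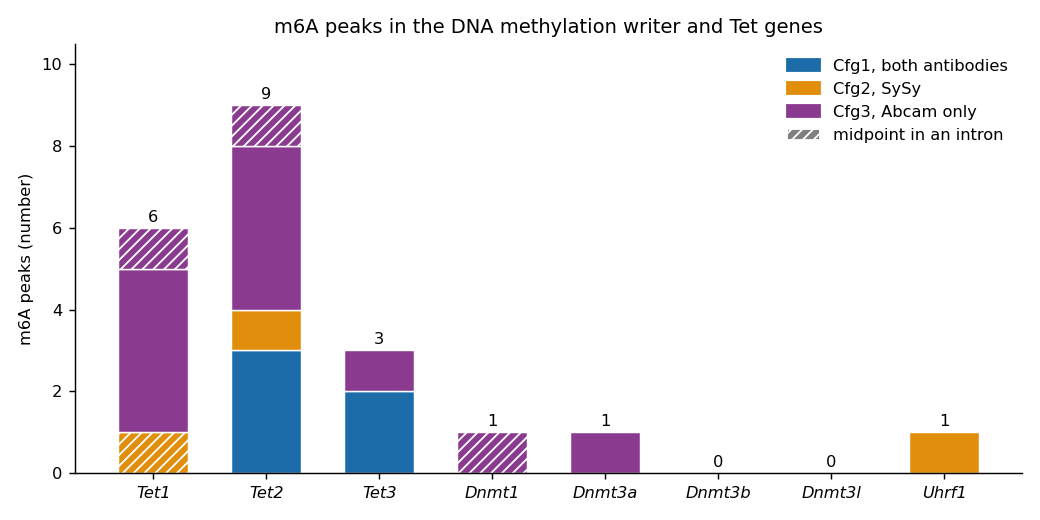
Number of m6A peaks (vertical axis) in each of the 8 genes (horizontal axis), stacked by peak list, with hatching for peaks whose midpoint lay in an intron. Tet2, Tet1 and Tet3 hold 9, 6 and 3 peaks, and the other genes hold 0 or 1.

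Of the 21 peaks, 13 were of the Abcam-only list, 5 of Cfg1 and 3 of Cfg2. Over all 17068 peaks, these 3 lists held 6319, 5277 and 5472. The Tet genes differed in their mix. Tet3 had 2 Cfg1 peaks and 1 Cfg3 peak, and Tet2 had 3 Cfg1, 1 Cfg2 and 5 Cfg3 peaks. Tet1 had no Cfg1 peak, 1 Cfg2 peak and 5 Cfg3 peaks. SySy therefore called 1 peak in Tet1, and that peak was intronic. Of the 5512 coding genes with a peak, 95.5% had fewer peaks than Tet2 and 248 had as many or more. Tet1 had more peaks than 87.5% of these genes, and Tet3 more than 60.7%. At least 6 peaks were found in 2 of the 8 genes, beside 3.13% of coding genes. In all genes, parts of a called region split between summits count as separate peaks, and several Tet2 peaks are such parts.

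Per length of spliced mRNA Tet2 again had the highest value of the Tet genes, and the order of Tet1 and Tet3 depended on the annotation. Tet2 had 0.887 exonic peaks per kb, more than 83.0% of coding genes with a peak, whose median was 0.399 per kb. Parts of a split region count as separate peaks in these values too. Tet3 had 0.505 per kb, and Tet1, whose mRNA of 14369 nt is the longest of the 8, had 0.278 per kb. The value of Tet3 rests on the transcript used: the GENCODE transcript with its longest coding sequence, Tet3-203, ends 3 nt after the last codon, whereas the RefSeq transcript has 11613 nt and gives 0.258 per kb, beside 0.279 for Tet1 and 0.869 for Tet2 on RefSeq transcripts. Uhrf1 had 0.279 per kb, Dnmt3a had 0.103 per kb, and Dnmt1, Dnmt3b and Dnmt3l had no exonic peak. No peak error is known from the lists, so neighbours in this order, Tet1 with Uhrf1 and with Tet3 under RefSeq among them, cannot be ranked.

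Exons held the midpoints of 17 of the 21 peaks (81.0%, 95% Wilson interval 60.0 to 92.3%), beside 71.8% of all peaks in coding genes. For Cfg3 alone, 10 of 13 member peaks were exonic (76.9%, 49.7 to 91.8%), beside 40.9% of all Cfg3 peaks in coding genes. Coding sequence held 13 of the 17 exonic midpoints (76.5%, 52.7 to 90.4%), beside 63.0% over all exonic peaks of coding genes. The 3′ UTR held 4 (23.5%, 9.56 to 47.3%), beside 33.0%. None lay in a 5′ UTR, where all exonic peaks of coding genes had 4.05%. The last exon of the transcript held 12 of the 17 (70.6%, 46.9 to 86.7%), beside 56.5% over all exonic peaks. Of these 12, 7 lay in the last exon of Tet2, most of them parts of called regions split between summits.

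Every exon with a peak midpoint was long. The 8 representative transcripts have 154 exons, of which 12 are at least 400 nt long. All 17 exonic peaks lay in 9 of these 12 exons, and the 142 shorter exons held none. Exons of this length made up 64.9% of the spliced sequence of the 8 genes, and held 92.5% of the exonic peaks of all coding genes, so the placement in long exons was shared with the rest of the data. The families differ in how much such sequence they have. Long exons made up 86.1% of the Tet mRNAs and 41.3% of the Dnmt mRNAs, and Dnmt1, with 39 exons, has none, its longest being 353 nt. Dnmt3a has a last exon of 6838 nt, which held 1 peak. The 3 long exons without a peak were exon 4 of Tet3 (2158 nt, all coding), the last exon of Dnmt3b (1469 nt) and the last exon of Dnmt3l (436 nt).

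**Figure D2:**
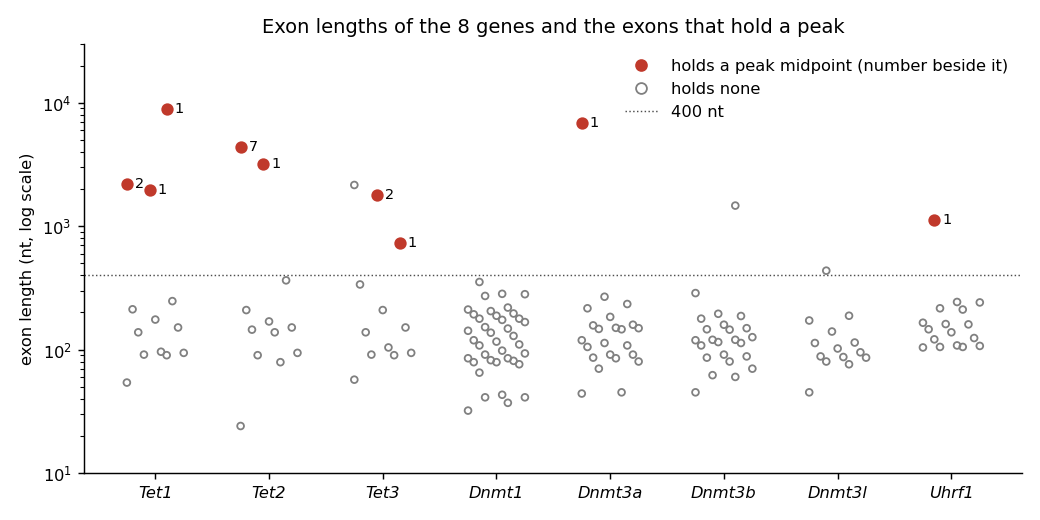
Length of every exon (vertical axis, nt on a log scale) in the representative transcript of each gene (horizontal axis; points are spread sideways for legibility). Filled points hold a peak midpoint, with the number of peaks beside them, and all of these lie above the dotted line at 400 nt.

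Tet2, which encodes the TET enzyme that lacks a CXXC DNA-binding domain of its own, had most of its peaks in its last exon. This exon, number 12 of 12 (chr3:133463839-133468190, minus strand, mm10), is 4352 nt long and 1451 nt of it are coding. It held 7 of the 9 Tet2 peaks, in a stretch of 1427 nt of which 73.7% lay inside a peak. The lists followed each other in order along the transcript. Positions are given in nt on the spliced mRNA from the last base before the stop codon, negative upstream of it. The 3 Cfg3 peaks came first, with midpoints at -973, -855 and -733. After a gap of 262 nt came the 3 Cfg1 peaks, at -340, -163 and 7, the last of which spans the stop codon. A further gap of 110 nt separated them from the Cfg2 peak at 286, in the 3′ UTR. Within each run of 3, the peaks were 1 base apart and carried 1 peak number with letters, which marks parts of a single called region split between its summits. The 7 peaks of the last exon thus came from 3 called regions.

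The other exonic Tet2 peak was of Cfg3, at -3026 in exon 3 (chr3:133485826-133486051), over codons 874 to 949 of 1920. Exon 3 is 3206 nt long and holds the amino-terminal part of the coding sequence. No SySy-called peak of Tet2 lay outside the last exon.

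Tet1, which encodes the CXXC-domain TET enzyme of embryonic stem cells, had its 4 exonic peaks spread over 3 long exons, all in coding sequence and all of the Abcam-only list. Exon 2 (1982 nt) held a peak at -5739 (chr10:62879530-62879745, minus strand), over codons 90 to 162 of 2039. Exon 4 (2203 nt, all coding) held peaks at -4134 (chr10:62840233-62840394) and -3740 (chr10:62839855-62839983), 249 nt apart. The first of these crosses the 3′ splice site of intron 3, with 16 intronic and 146 exonic bases. The last exon of Tet1 is 8836 nt long, the longest of the 154 exons, and held 1 peak, at -433 in its coding part. Its 3′ UTR held none.

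Tet3, which encodes the TET enzyme of the oocyte and zygote, had 2 Cfg1 peaks at opposite ends of its coding sequence. The first lay in exon 2 at -5367 (chr6:83454887-83455136, minus strand) and covered the start codon and codons 1 to 56 of 1803. In GENCODE this exon belongs to Tet3-203 alone of 5 transcripts, and it lies outside the longest of them. In RefSeq it is exonic in 6 of 7 transcripts. The second Cfg1 peak lay in the last exon at -363, over codons 1641 to 1724, and a Cfg3 peak lay upstream of it at -1146 (chr6:83369109-83369273), over codons 1394 to 1449. The long exon 4 of Tet3, between these, held none.

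**Figure D3:**
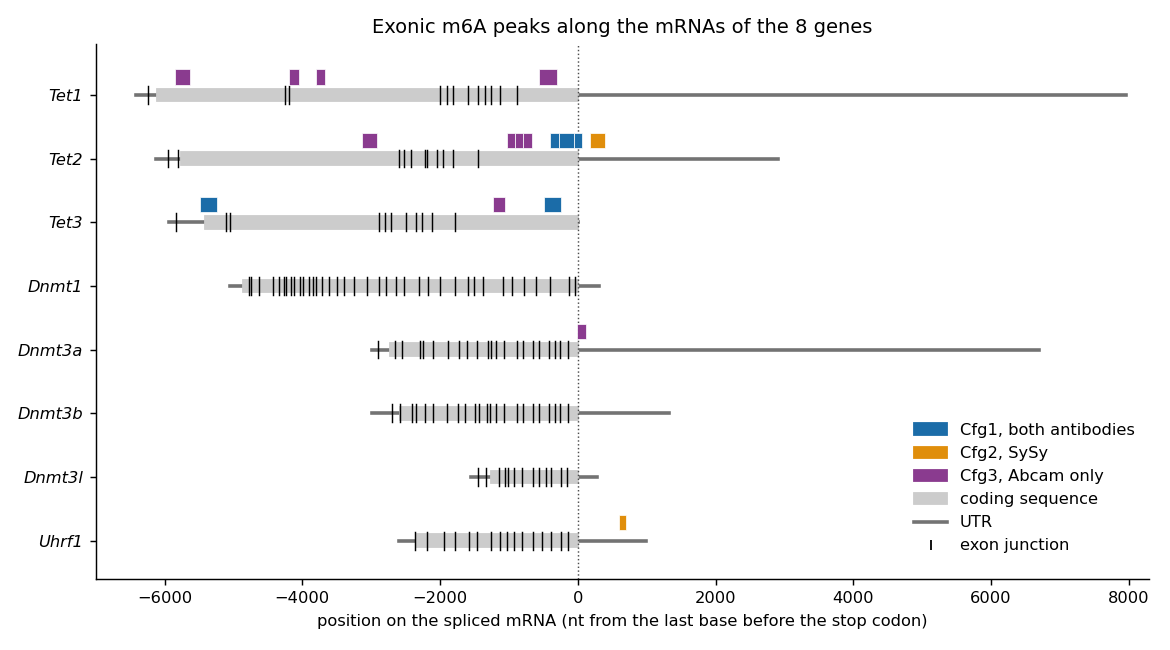
Exonic peaks (coloured boxes) on the spliced representative mRNA of each gene, with position in nt from the last base before the stop codon on the horizontal axis, coding sequence as grey bars, UTRs as lines and exon junctions as ticks. The Tet peaks sit in stretches without junctions, 7 of them in the last exon of Tet2, and the Tet3 transcript shown has almost no 3′ UTR.

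The last exons held 10 of the 15 exonic Tet peaks, 8 of them in coding sequence, and each of the 3 genes had a peak at a like distance from the stop codon, with midpoints at -433, -340 and -363. Whether these cover the same part of the encoded proteins was examined after the positions had been seen, by aligning the translated coding sequences. Tet1 and Tet2 encoded identical residues at 34.1% of the aligned codons, Tet1 and Tet3 at 39.8%, and Tet2 and Tet3 at 37.9%. The alignment gave 5 stretches that lay under a last-exon peak in all 3 genes. Of these, 4 were short, with 5, 9, 2 and 5 codons between codons 1854 and 1874 of Tet1. They held 1 residue identical in the 3 proteins, and their borders moved with other gap penalties. The longest had 17 codons: codons 1920 to 1936 of Tet1, 1784 to 1800 of Tet2 and 1662 to 1678 of Tet3. It was found again with other gap penalties. In this longest stretch 11 of the 17 residues were identical in the 3 proteins. At the nucleotide level 28 of 51 positions were identical, and the third base of the codon was identical in 3 of the 17 codons. The 17 codons of each gene are shown because they are the longest shared stretch, at chr10:62812844-62812894, chr3:133467100-133467150 and chr6:83368420-83368470, all on the minus strand; none holds a DRACH match, so no letters are in capitals, and the first 2 bases of the Tet2 stretch lie just outside the peak.
Tet1, 17 codons: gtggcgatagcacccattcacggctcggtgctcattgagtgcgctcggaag
Tet2, 17 codons: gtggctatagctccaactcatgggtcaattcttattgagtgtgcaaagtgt
Tet3, 17 codons: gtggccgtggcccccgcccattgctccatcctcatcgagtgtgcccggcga

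The peaks over this stretch differed in list and in extent. In Tet1 it lay at the 3′ end of a 250-nt Cfg3 peak over codons 1853 to 1936 (chr10:62812844-62813093), which held 6 DRACH matches. In Tet3 it lay inside a 250-nt Cfg1 peak (chr6:83368284-83368533), which also held 6. In Tet2 it lay at the 5′ end of a 137-nt Cfg1 peak over codons 1784 to 1830 (chr3:133467012-133467148), which held 0, while the Cfg1 peak after it, part of the same called region, held 6. By the paper's methods, called peaks wider than 250 nt were trimmed around their summit, and regions with several summits were split between them. The Tet1 and Tet3 peaks have exactly this width, so the borders of the shared stretch may come from this step. The Tet2 peak aligned with the Tet3 peak over all 47 of its codons, with 68.1% identical residues and 63.1% identical nucleotides. The Tet1 and Tet3 peaks shared 35 aligned codons. The longest run of identical bases between any of these peaks was 8 nt for Tet1 with Tet2 or Tet3, and 9 nt for Tet2 with Tet3. The whole peaks, and the Tet2 peak that follows, are printed with each DRACH match in capitals.
Tet1, Cfg3, last exon: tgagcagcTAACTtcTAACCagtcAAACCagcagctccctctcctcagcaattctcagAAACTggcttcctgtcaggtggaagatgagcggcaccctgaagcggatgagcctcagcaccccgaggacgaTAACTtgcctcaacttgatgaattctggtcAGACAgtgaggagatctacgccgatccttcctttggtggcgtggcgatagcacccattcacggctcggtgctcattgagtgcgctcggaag
Tet2, Cfg1, first part: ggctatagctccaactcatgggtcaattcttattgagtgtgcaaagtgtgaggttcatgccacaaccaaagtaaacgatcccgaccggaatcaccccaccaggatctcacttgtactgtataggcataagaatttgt
Tet2, Cfg1, second part: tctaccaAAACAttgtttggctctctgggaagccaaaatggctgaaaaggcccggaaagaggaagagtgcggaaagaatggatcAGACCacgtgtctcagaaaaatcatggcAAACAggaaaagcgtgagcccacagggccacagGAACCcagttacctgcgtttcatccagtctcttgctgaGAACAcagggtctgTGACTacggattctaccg
Tet3, Cfg1, last exon: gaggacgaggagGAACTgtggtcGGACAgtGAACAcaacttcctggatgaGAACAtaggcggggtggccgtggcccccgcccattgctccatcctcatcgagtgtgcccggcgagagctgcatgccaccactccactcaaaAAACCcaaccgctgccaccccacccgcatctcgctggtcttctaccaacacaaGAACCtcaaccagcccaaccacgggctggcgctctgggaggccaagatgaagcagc

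Upstream of this stretch the alignment was weaker. The Cfg3 peaks of Tet3 at -1146 and of Tet2 at -973 shared 39 aligned codons, but 25.6% of the aligned residues of that Tet2 peak were identical. Downstream, the Tet2 Cfg1 peak that spans the stop codon covers codons 1902 to 1920. Of its aligned residues 63.2% were identical with Tet1 and 57.9% with Tet3, yet neither gene had a peak over the aligned codons. Outside the last exons, no exonic peak of a Tet gene covered codons aligned with a peak of another Tet gene.

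**Figure D4:**
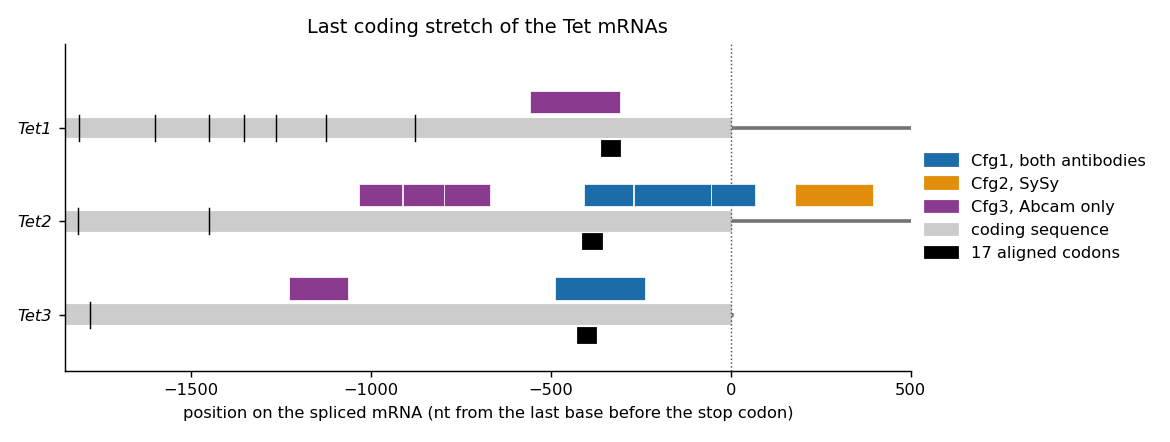
The final coding part of the Tet1, Tet2 and Tet3 mRNAs, with position in nt from the last base before the stop codon on the horizontal axis, peaks as coloured boxes above each mRNA, exon junctions as ticks and the 17 aligned codons as black boxes below it. In each mRNA the black box lies under a peak, of Cfg3 in Tet1 and of Cfg1 in Tet2 and Tet3.

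Few of the peaks held the GGACT form of the m6A motif. It was found on the strand of the peak in 3 of 21 peaks (14.3%, 95% Wilson interval 4.98 to 34.6%), beside 28.5% of all 17068 peaks. By list the share over all peaks was 38.2% in Cfg1, 32.2% in Cfg2 and 17.1% in Cfg3, the list that 13 of the member peaks belong to. The shorter GGAC was found in 14 of 21 (66.7%, 45.4 to 82.8%), beside 62.2%, and any DRACH form in 18 of 21 (85.7%, 65.4 to 95.02%), beside 95.7%. The median was 2.4 DRACH matches per 100 nt in the member peaks and 2.4 in all peaks. The same 5 letters on the opposite strand, read as AGTCC, occurred in 5 of the 21 peaks (23.8%, 10.6 to 45.1%), beside 11.8% of all peaks. All 5 were among the 13 Cfg3 peaks (38.5%, 17.7 to 64.5%), beside 9.45% of all Cfg3 peaks. A match is a description of the sequence and does not locate a methylated adenosine.

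The GGACT matches lay in 1 peak of each list. The Cfg2 peak of Tet1 intron 7 held 2, the Cfg3 peak at the start of Tet1 exon 4 held 1, and the Cfg1 peak over the Tet3 start codon held 1. They are printed with DRACH matches, GGACT included, in capitals. For Tet3 the 166 coding bases of the peak are shown (chr6:83454887-83455052), which begin at the start codon. In the Tet1 exon 4 peak the first 16 bases are intronic.
Tet1, Cfg2, intron 7: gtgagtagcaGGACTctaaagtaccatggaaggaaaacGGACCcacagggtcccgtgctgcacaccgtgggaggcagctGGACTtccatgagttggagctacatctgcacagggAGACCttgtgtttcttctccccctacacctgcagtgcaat
Tet1, Cfg3, exon 4: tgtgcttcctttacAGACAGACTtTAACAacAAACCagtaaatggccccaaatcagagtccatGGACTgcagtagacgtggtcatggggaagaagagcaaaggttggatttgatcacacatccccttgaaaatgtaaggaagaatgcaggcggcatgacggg
Tet3, Cfg1, from the start codon: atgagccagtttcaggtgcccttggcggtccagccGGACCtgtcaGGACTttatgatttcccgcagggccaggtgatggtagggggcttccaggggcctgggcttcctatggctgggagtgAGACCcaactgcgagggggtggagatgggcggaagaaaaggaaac

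The stop codon had a peak midpoint within 200 nt in 3 of the 17 exonic peaks (17.6%, 6.19 to 41.0%), beside 22.1% of all exonic peaks of coding genes. These were the Cfg1 peaks of Tet2 at -163 and 7 and the Cfg3 peak of Dnmt3a at 56. Within 500 nt the count was 7 of 17 (41.2%, 21.6 to 64.0%), beside 40.4%.

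Introns held the other 4 peaks, in 3 of the 8 genes, beside 9.55% of coding genes with an intronic peak. At none of the 4 midpoints did another annotated transcript have an exon, beside 13.7% of all intronic peaks that lay at such a position. By list this share was 40.8% in Cfg1, 37.2% in Cfg2 and 6.85% in Cfg3, to which 3 of the 4 belong. In Tet1, the Cfg2 peak was centred 156 nt into intron 7 (chr10:62822317-62822470), which has 2925 nt. It is the only member peak called with SySy in an intron. The Cfg3 peak of Tet1 lay in intron 3 (chr10:62857062-62857164), the longest of its 12 introns at 24429 nt, with its midpoint 7695 nt from the intron's start. The Cfg3 peak of Tet2 lay in intron 2, 876 nt into an intron of 25311 nt.

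Both of these Cfg3 peaks lay in TG repeats. TG or GT made up 58.8% of the dinucleotides of the Tet1 peak and 69.3% of those of the Tet2 peak, and neither held a DRACH match. In the 17 exonic peaks the share was between 3.36% and 18.1%. Among all Cfg3 peaks in introns, 11.6% held TGTGTG and 9.52% held no DRACH match. Among Cfg1 peaks in introns the shares were 8.28% and 0.955%. The 3 intronic Cfg3 peaks of the 8 genes all held TGTGTG, that of Dnmt1 once, and so did 1 of the 10 exonic Cfg3 peaks, that of Dnmt3a, once. These letters were searched after the sequences had been seen. The Tet1 sequence is printed because it lacks the motif.
Tet1, Cfg3, intron 3: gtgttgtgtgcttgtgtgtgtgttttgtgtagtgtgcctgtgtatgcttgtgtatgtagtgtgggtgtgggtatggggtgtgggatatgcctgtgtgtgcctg

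**Figure D5:**
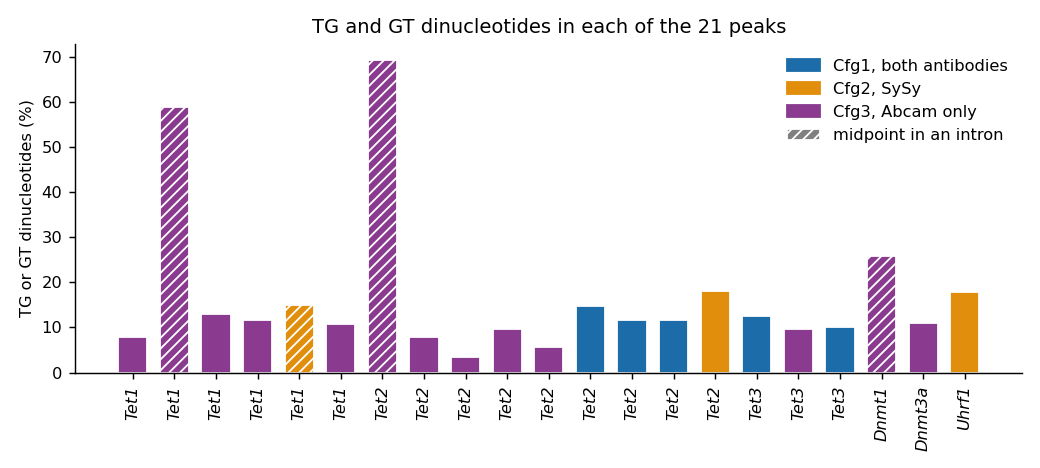
Share of dinucleotides that are TG or GT (vertical axis, %) in each of the 21 peaks, in the order of the genes and from 5′ to 3′ within each (horizontal axis), coloured by list and hatched for intronic midpoints. The intronic Cfg3 peaks of Tet1 and Tet2 reach 58.8% and 69.3%, and the exonic peaks stay at or under 18.1%.

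Among the methyltransferase genes, Dnmt1, the maintenance enzyme, had 1 peak, of Cfg3. Its midpoint lay in intron 22 of 38 (chr9:20919946-20920058, minus strand), an intron of 121 nt, 15 nt from its 3′ end. The peak covers the 3′ splice site, with 71 intronic and 42 exonic bases, the latter in codons 693 to 707 of 1620. It overlaps exons of 3 other transcripts, so by overlap in place of the midpoint it would count as partly exonic. It held 3 DRACH matches, printed in capitals.
Dnmt1, Cfg3, intron 22: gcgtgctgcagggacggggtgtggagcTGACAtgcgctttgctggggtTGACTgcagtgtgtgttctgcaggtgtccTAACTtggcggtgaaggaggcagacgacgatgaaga

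Dnmt3a, the de novo enzyme expressed from early development onward, had 1 Cfg3 peak in its last exon (chr12:3907737-3907864, plus strand). The midpoint of this peak lay at 56 in the 3′ UTR, and the peak spans the stop codon, from -7 to 120. Its 10 DRACH matches included 8 of the form AAACA, which came from a run of AAAC repeats, and its GC content was 36.7%, the lowest of the 21 peaks, whose median was 50.8%. Dnmt3b, the de novo enzyme known for high expression in primed pluripotent cells, had no peak in a span of 38281 nt, and neither had Dnmt3l in 21676 nt. For Uhrf1, which recruits DNMT1, the single peak was of Cfg2, at 650 in the 3′ UTR of the last exon (chr17:56323096-56323203, plus strand). From the Dnmt3a and Uhrf1 peaks, 21 bases around the DRACH match nearest the midpoint are shown, with the matches in capitals, at chr12:3907789-3907809 and chr17:56323163-56323183.
Dnmt3a, Cfg3, 3′ UTR: AAACAAACAAACAAACAaaaa
Uhrf1, Cfg2, 3′ UTR: ctcattttTAACTcagcaaca

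By the 6 counts of exonic and intronic peaks per list, the coding gene most like Tet1 was Mphosph8, which encodes a chromodomain protein of the HUSH silencing complex, with a summed difference of 1 peak. At a difference of 2 peaks 7 genes tied, of which Rlim and Alpk3 were the closest in mRNA length. For Tet2 the least difference was 2 peaks, at which 12 genes tied, and the closest in mRNA length were Tacc2, Zfp106 and Kat6a. Likeness was measured over 3 lists only and describes the counts.

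Genes that read, repair or support DNA methylation also carried peaks. Of 43 such genes 28 held at least 1 peak, 71 in all, of which 21 were of Cfg1, 29 of Cfg2 and 21 of Cfg3. Against 25.1% of all coding genes, these were 9 of 11 methyl-CpG readers and their relatives, and 4 of 9 genes of excision repair. They were also 11 of 16 partners and regulators, 4 of 5 genes of methyl donor metabolism and 0 of 2 related methyltransferases. The list was not matched for length or expression.

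Among the readers and their relatives, Mbd4, a glycosylase that binds methylated CpG and removes mismatched thymine, had 5 peaks, all called with SySy. Each of its 3 intronic midpoints was exonic in another transcript. Mbd5 had 3 Cfg3 peaks, all in coding exon 4 of 2136 nt. Zbtb38 had 3 Cfg3 peaks in coding sequence of its exon 6 of 6260 nt. Mbd3 had 2 Cfg1 peaks and Mbd2 had 2 Cfg3 peaks in introns. In excision repair the DNA ligase gene Lig3 had 3 peaks, 1 of each list, and Tdg, the glycosylase that removes the TET products formylcytosine and carboxylcytosine, had 0.

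Among the partners, Zfp445, a zinc finger protein of imprint maintenance, had 8 peaks, 5 of Cfg1 and 3 of Cfg2, of which 7 were exonic. Zfp57, with the same role, had 3. Their corepressor Trim28 had 2 and the histone methyltransferase genes Setdb1 and Ehmt1 had 3 and 5. Ogt, the glycosyltransferase that binds TET proteins, had 2 peaks in its exon 22, at -83 and 157. Usp7, a deubiquitinase of UHRF1 and DNMT1, had 3 peaks, all intronic. In methyl donor metabolism Mat2a, Mat2b and Mtr had 2 peaks each.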

How the data were processed

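ChrMeRIP-seq peaks from 8 libraries in 4 groups of 2 were analysed. The 3 deposited lists give the start and end of each interval in mm10, a name, a score and a strand, and the score that the authors deposited was 0 for every peak. For each antibody, MACS2 2.1.1 (submitters' processing notes and methods) had been run on both immunoprecipitates with their inputs. Peaks were then split and trimmed around summits and assigned a strand by enrichment, and those of ambiguous direction were dropped. HOMER is also named. The aligner of these libraries is not given in the sources used here. No column of per-sample values was left out.

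The midpoint of a peak, taken with its strand, decided its place in GENCODE vM21 on assembly GRCm38.p6 (the coordinates of mm10). The transcript with the longest coding sequence represented each gene, and sequences were read from the assembly. All 8 member transcripts spliced from it matched their annotated sequences, and 1000 of 1000 simulated positions were placed correctly. In 1 Cfg2 entry a stray character in the strand field was ignored. Motifs were searched on the strand of the peak. Translated coding sequences were aligned globally (BLOSUM62, gap opening 11 and extension 1, or 10 and 0.5) with Biopython 1.88. Other software was Python 3.11.15, numpy 2.4.6, statsmodels 0.14.6, pysam 0.24.0, samtools 1.23.1 and matplotlib 3.10.9. Counts are described beside all peaks or all coding genes, with no p-value. Alternatives covered the rule of position, peak width, transcript, motif, windows, exon length and background. The members and the gene lists were chosen with earlier results of these data known. All 8 genes are named with every peak, genes of the wider list where they held at least 2 peaks (some items that the rule takes in are not reported here), and the 3 most similar genes for members with at least 4. Tdg was named outside this rule after its count was seen.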

Additional observations from a re-analysis of the deposited data

How the results depend on the processing

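Of 46 alternatives over 14 counts and shares, 36 left the value within 1.5 times of the main one. The numbers of peaks per list were the same by any overlap, by majority overlap, on either strand and for peaks of at least 100 nt. These settings could not have changed the counts, so their share of the 36 says nothing of stability. No opposite-strand midpoint lay in a span, no peak lay within 3000 nt outside one, and the narrowest member peak has 103 nt. The exonic count was 16 with the longest transcripts, which leave out the first exons of Tet3-203, and 17 with RefSeq. In place of 3 peaks with GGACT, 14 held GGAC and 18 held DRACH. Within 500 nt of the stop codon lay 7 peaks in place of 3. Without the last exon of Tet2, an alternative chosen after seeing the data, 1 peak lay within 200 nt of the stop codon and 10 lay in exons of at least 400 nt. By any overlap 1 intronic peak (Dnmt1), in place of 0, touched an exon of another transcript. With coding genes that hold a peak as the background, the shares with Cfg1, Cfg2 and Cfg3 peaks were 48.4%, 54.6% and 52.8% in place of 12.1%, 13.7% and 13.3%. Neighbouring peaks of different lists numbered 2 within 500 nt, both in Tet2, and 1 within 250 nt. RefSeq and TGTGTG (4 peaks) were also chosen after seeing the data. TGTGTG is not a form of DRACH, so its count, though among the 36, does not bear on that of GGACT. No paired analysis was possible because the lists come from pooled duplicates and hold no value per library, for which reason leaving out a replicate was not possible either. With scores of 0, no stricter threshold could be set. Counts of 21 peaks leave wide intervals.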
